A study of Homo sapiens with 6 samples.

Results

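Transcripts of glycolysis and of the response to low oxygen were examined in WZR6 cells and in the parental NCI-H1975 cells from which they were derived. The 48 genes were taken from a list that covers glucose uptake, the enzymes of glycolysis, lactate handling, the oxygen-sensing machinery and well-known hypoxia-induced genes. Every probe set that the platform's annotation assigns to a listed gene was included, which gave 87 of 22215 probe sets, 2 of which name several genes. Of the 48 genes, 45 had at least 1 probe set naming them alone, out of 11963 such genes on the array. No probe set was annotated to SLC16A1, SLC16A3 or CA9, which are not analysed here. NCI-H1975 is an established human lung adenocarcinoma line whose EGFR, a growth factor receptor, is mutant. WZR6 is a single clone picked from NCI-H1975 cells grown in rising amounts of WZ4002, an inhibitor of mutant EGFR, so what is peculiar to the clone and what belongs to resistance cannot be told apart. Each group held 3 arrays, 1 per sample, and n = 3 per group applies to every value. Cells of both groups were harvested while growing exponentially in medium with 5% serum. The labels name no low-oxygen treatment and do not say whether WZ4002 was present at harvest or whether samples of a group came from separate cultures, so p-values measure only the spread between these samples.

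Glycolysis converts glucose to pyruvate, and lactate dehydrogenase then turns pyruvate into lactate, a route that many tumours use even when oxygen is present. Hypoxia-inducible factors (HIF) are pairs of an alpha subunit (HIF1A or EPAS1) and the beta subunit ARNT. When oxygen is plentiful, prolyl hydroxylases of the EGLN family mark the alpha subunits, the VHL protein recognises the mark and the subunits are degraded. When oxygen is scarce the alpha subunits persist and raise glycolytic enzymes, angiogenic factors, pH regulators and collagen-modifying enzymes. Because that control acts on protein stability, transcript levels of the alpha subunits do not measure HIF activity.

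Values are log2 intensities as normalized by the authors, differences are WZR6 minus parental on that scale, and a fold is the ratio of the geometric means. A gene is called when its adjusted p in limma is under 0.05. Log2 intensities of all probe sets correlated with r of 0.9978 to 0.9983 within a group and 0.9815 to 0.9826 between groups. Both groups kept bright keratin signals: KRT8 ranged from 12.04 to 12.13 in WZR6 cells and from 12.21 to 12.39 in parental cells. The 5 epithelial markers summed to intensities of 22900 to 23600 in WZR6 cells and 39900 to 40100 in parental cells, with the largest falls in EPCAM (-6.26) and CDH1 (-5.69). The keratin KRT19 also fell, with a difference of -1.71. Of 3 measured lung lineage markers, which summed to 429 to 449 in WZR6 cells and 703 to 771 in parental cells, NKX2-1 was lower and the other 2 were not called. Among markers of other cell types, 3 leukocyte genes summed to 241 to 262 in WZR6 cells and 391 to 448 in parental cells, with CD14 lower (-0.96), CD3E and PTPRC not called, and PTPRC under 5.27, the lower quartile of the log2 intensities, in both groups. The 7 fibroblast and endothelial genes summed to 1220 to 1380 in WZR6 cells and 1280 to 1490 in parental cells, 3 being higher, 1 lower and 3 not called. The part of these markers in the results below was not tested, and in bulk RNA fewer cells of a type and less RNA per cell cannot be told apart.

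The program did not move as a block. Of the 45 measured genes 14 rose in WZR6, 15 fell and 16 were not called, and the median difference was -0.01, against 0.02 over all genes. All 6 measured genes of the oxygen-sensing machinery, 6 of 9 of upper glycolysis and 3 of 4 secreted hypoxia targets were called. The lactate dehydrogenases and the kinases of pyruvate dehydrogenase were not called on their brightest probe sets. Most changes were small: 21 of the 29 called genes differed by less than 0.5, 7 by 0.5 to 1 and only ANGPTL4 by more than 1. Called genes made up 64.4% of those measured, against 48.0% of all genes. The listed genes are bright, with a median level of 11.39 against 8.13 over all genes, and bright genes are called more often on these arrays. Of the 40 members above the median of all values (7.38) 27 were called, and of all genes above that level 67.5% were. Of the 22 above the members' own median level 14 were called, and of all genes above it 67.0% were. Against genes of like brightness the share called thus lay near the background. The groups did not overlap for 34 of the 45 genes, against 56.3% of all genes, and 1 of the 45 was called with a difference of at least 2-fold, against 4.78% of all genes. Neither of these shares was computed for genes of like brightness. The background was 24.5% of all genes for rises and 23.5% for falls.

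**Figure D1:**
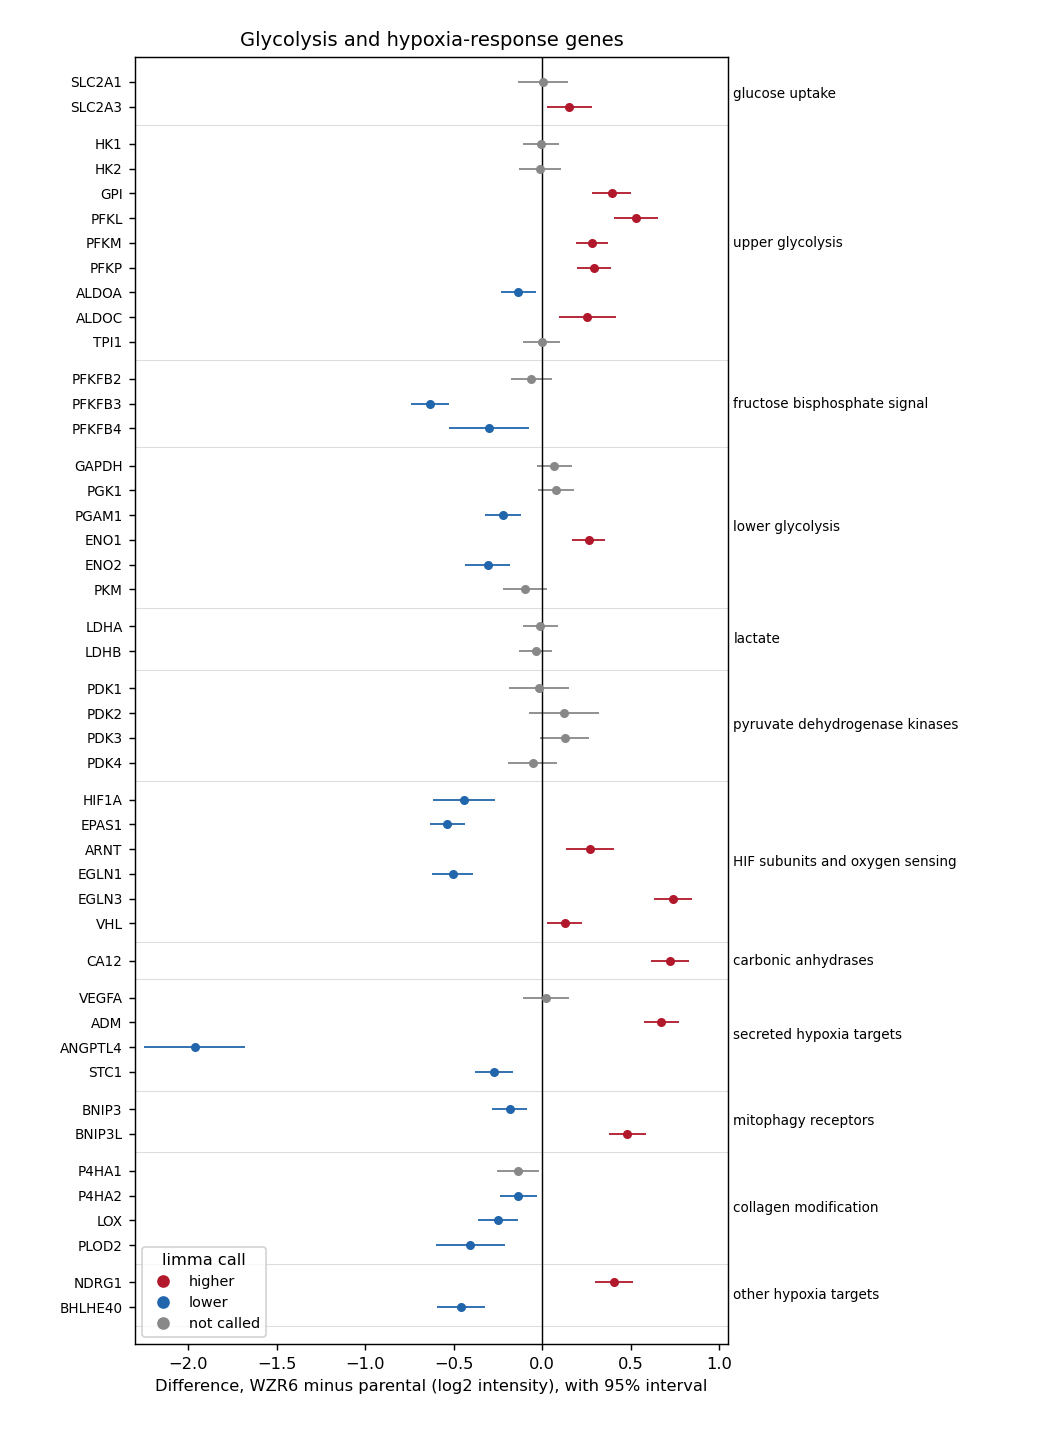
Difference of each measured gene, WZR6 minus parental, in log2 intensity, with its 95% interval (n = 3 arrays per group); red points were called higher in WZR6, blue lower, grey not called, and genes are grouped by role. ANGPTL4 stands apart at -1.96, and the other called genes lie between -0.63 and 0.74.

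All 6 measured genes of HIF and its control were called, in both directions, but the call of VHL was weak, as given below. Over all genes 48.0% were called, and 67.5% of those above the median of all values. The alpha subunits HIF1A and EPAS1 and the hydroxylase EGLN1 fell, while the beta subunit ARNT, the hydroxylase EGLN3 and VHL rose. EGLN3, a prolyl hydroxylase that is itself induced by HIF, read 9.50, 9.55 and 9.49 in WZR6 cells and 8.83, 8.74 and 8.75 in parental cells. It was 1.67-fold higher in WZR6 (95% interval 1.55 to 1.80, adjusted p = 2.32e-05 in limma). EGLN1, the hydroxylase that acts on HIF1A in well-oxygenated cells, read 9.55, 9.52 and 9.48 in WZR6 cells and 9.97, 10.004 and 10.09 in parental cells. The hydroxylases thus moved in opposite directions, with EGLN1 1.42-fold lower in WZR6 (1.31 to 1.54, adjusted p = 0.000172) and no overlap between the groups for either gene. Each was read by 1 probe set, of the _x_at type for EGLN1 and the _s_at type for EGLN3, whose probes may match more than 1 transcript. On each array the log2 ratio of EGLN3 to EGLN1 was formed, and it was 1.25 higher in WZR6.

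The alpha subunits fell together. HIF1A read 13.69, 13.65 and 13.86 in WZR6 cells and 14.14, 14.12 and 14.28 in parental cells, a difference of -0.44 ± 0.07 (SE, adjusted p = 0.00223). EPAS1, which encodes HIF-2 alpha, read 12.30, 12.32 and 12.34 in WZR6 cells and 12.87, 12.83 and 12.88 in parental cells, and fell by 0.54 ± 0.04 on the log2 scale (adjusted p = 6.15e-05). No WZR6 array reached the lowest parental array for either gene. The dim second probe set of EPAS1 differed by -0.24 and was not called. ARNT, the shared beta subunit, read 9.05, 8.96 and 9.12 in WZR6 cells and 8.74, 8.76 and 8.83 in parental cells, a difference of 0.27 ± 0.06 (adjusted p = 0.00691). All 3 of its probe sets were called higher, at 0.27 to 0.46. VHL was called at 0.13 ± 0.04 (adjusted p = 0.0405), but both of its means, 3.87 in WZR6 cells and 3.74 in parental cells, lay below the lower quartile of all values. The call of VHL ended when any single array was left out, with adjusted p between 0.051 and 0.13.

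**Figure D2:**
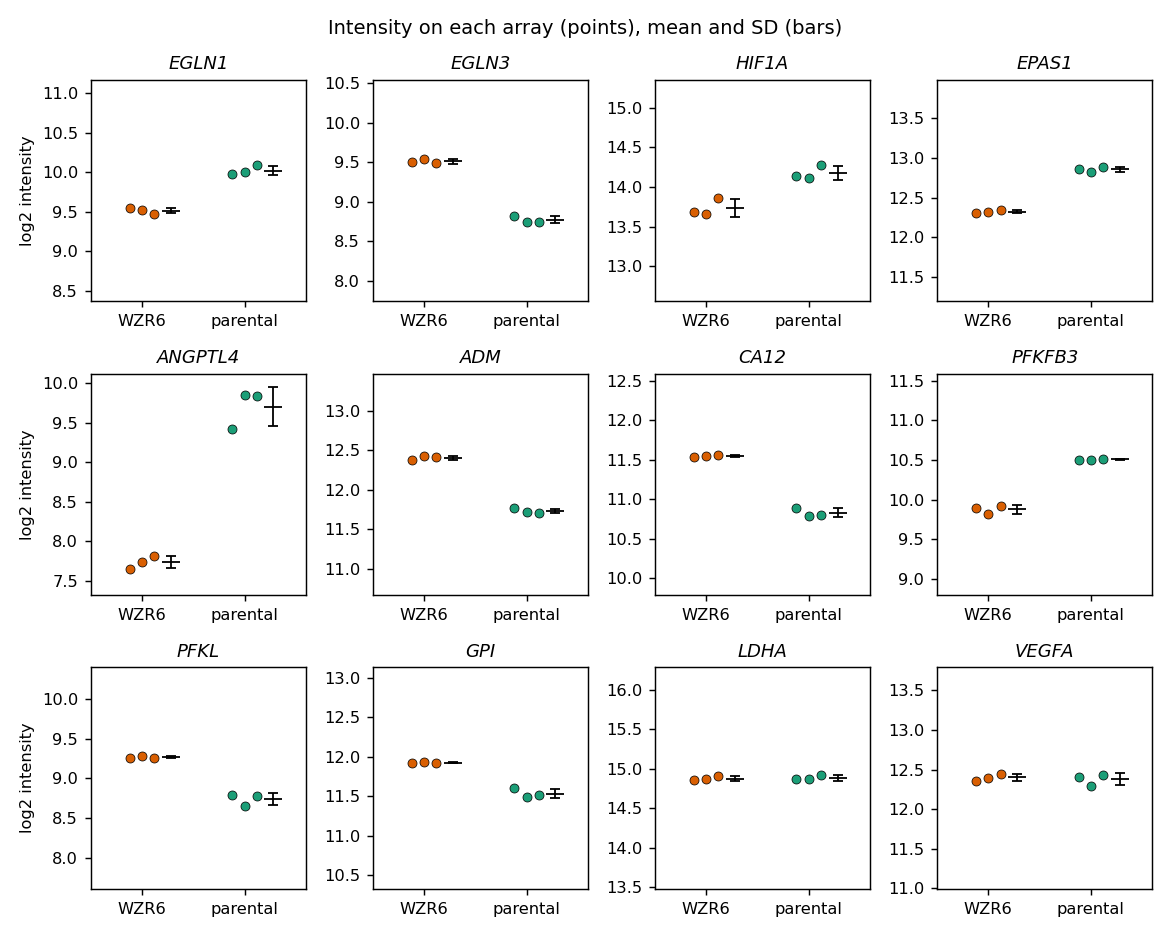
Log2 intensity of 12 genes on each of 3 WZR6 arrays (orange, left) and 3 parental arrays (green, right), with mean and SD beside the points; every panel spans the same range of log2 units. The groups are apart for all genes shown except LDHA and VEGFA.

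Hypoxia-induced genes that encode secreted factors did not share a direction. ANGPTL4, a secreted inhibitor of lipoprotein lipase, read 7.66, 7.74 and 7.82 in WZR6 cells and 9.42, 9.85 and 9.83 in parental cells. The lowest parental array was still far above the highest WZR6 array, and ANGPTL4 was 3.90-fold lower in WZR6 (3.20 to 4.76, adjusted p = 2.38e-05). ADM, the vasodilator peptide adrenomedullin, read 12.37, 12.43 and 12.41 in WZR6 cells and 11.77, 11.72 and 11.71 in parental cells, so it was 1.59-fold higher (1.49 to 1.71, adjusted p = 2.56e-05). VEGFA, the main angiogenic growth factor of this response, read 12.36, 12.40 and 12.45 in WZR6 cells and 12.41, 12.30 and 12.44 in parental cells. Its groups overlapped, and its difference was 0.02 (95% interval -0.11 to 0.15, adjusted p = 0.779). None of its 4 probe sets was called, at differences of 0.02 to 0.21. Averaging the VEGFA probe sets gave 0.13 (adjusted p = 0.0583 in limma). STC1, the secreted hormone stanniocalcin, read 11.08, 11.08 and 11.02 in WZR6 cells and 11.32, 11.29 and 11.37 in parental cells, 1.21-fold lower in WZR6 (1.12 to 1.30, adjusted p = 0.00230).

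CA12, a membrane carbonic anhydrase that helps cells to dispose of acid, was the most thoroughly measured of the genes that rose. Its main probe set read 11.54, 11.55 and 11.56 in WZR6 cells and 10.89, 10.79 and 10.80 in parental cells, 1.65-fold higher in WZR6 (1.53 to 1.78, adjusted p = 2.83e-05). Of its 6 probe sets 5 were called higher, at 0.72 to 0.93, and the dimmest, at 0.18, was not called. NDRG1, a stress-responsive gene widely used as a hypoxia marker, read 12.87, 12.90 and 12.97 in WZR6 cells and 12.50, 12.52 and 12.48 in parental cells. It was 1.33-fold higher in WZR6 (1.23 to 1.43, adjusted p = 0.000325). BHLHE40, a transcriptional repressor induced by hypoxia, moved the other way. It read 11.08, 11.21 and 11.18 in WZR6 cells and 11.68, 11.56 and 11.61 in parental cells, and fell by 0.46 ± 0.06 (SE) on the log2 scale (adjusted p = 0.000548). A second, dimmer probe set of BHLHE40 differed by -0.04 and was not called, and averaging the probe sets gave -0.25 for the gene.

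The mitophagy receptors BNIP3 and BNIP3L, which mark mitochondria for removal, also parted. BNIP3L read 12.002, 12.02 and 11.93 in WZR6 cells and 11.50, 11.53 and 11.47 in parental cells, a difference of 0.48 ± 0.04 (SE, adjusted p = 0.000142), and both of its probe sets were called higher, the other at 0.28. BNIP3 differed by -0.18 ± 0.04 on its brighter probe set (adjusted p = 0.00970), while the other, also bright, differed by -0.01 and was not called.

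Of 4 enzymes that modify collagen 3 were called lower and P4HA1 was not called. Over all genes 23.5% were called lower, a share not computed at like brightness. PLOD2, the lysyl hydroxylase of collagen telopeptides, read 13.00, 12.93 and 13.18 in WZR6 cells and 13.43, 13.35 and 13.55 in parental cells, 1.32-fold lower in WZR6 (1.16 to 1.52, adjusted p = 0.00583). Its second probe set, also bright, differed by -0.23 and was not called. The 20 measured genes nearest to PLOD2 had a median difference of -0.34, as described below. LOX, the lysyl oxidase that cross-links collagen, differed by -0.25 on its brightest probe set (adjusted p = 0.00397), and its other bright probe set differed by 0.08 and was not called. Averaging the probe sets of LOX gave -0.07, and the gene was then not called. The prolyl hydroxylase subunits P4HA1 and P4HA2 differed by -0.14 and -0.13, with adjusted p of 0.0592 and 0.0417. The call of P4HA2 ended without WZR6 replicate 1 or 2 or any 1 parental array, where adjusted p reached 0.134.

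HIF binds DNA at short core letters, ACGTG or GCGTG, so the RefSeq promoter windows were searched for them on both strands over the 250 bases before the transcription start. Promoters of 40 of the 48 genes were matched in the GRCh38.p14 table; those of SLC2A3, PFKFB2, SLC16A1, VHL, VEGFA, STC1, BNIP3L and NDRG1 were not used here. The stretches below show the largest fall (ANGPTL4), the fall of PFKFB3, described below, the repeated letters of BNIP3, the 3 largest rises (EGLN3, CA12 and ADM) and LDHA, which was not called. Each runs 5′ to 3′ on the gene's own strand for 90 bases that end before the start, and capitals mark every match on either strand.
ANGPTL4: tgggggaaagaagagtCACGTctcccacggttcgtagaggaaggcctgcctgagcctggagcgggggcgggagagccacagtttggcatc
PFKFB3: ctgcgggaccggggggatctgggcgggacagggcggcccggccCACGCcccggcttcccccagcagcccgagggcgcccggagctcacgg
BNIP3: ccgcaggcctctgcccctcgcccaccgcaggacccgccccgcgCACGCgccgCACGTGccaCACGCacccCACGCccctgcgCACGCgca
EGLN3: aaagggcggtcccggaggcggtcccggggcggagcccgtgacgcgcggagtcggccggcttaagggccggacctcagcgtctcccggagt
CA12: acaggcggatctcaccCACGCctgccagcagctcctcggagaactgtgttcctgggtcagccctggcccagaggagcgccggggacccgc
ADM: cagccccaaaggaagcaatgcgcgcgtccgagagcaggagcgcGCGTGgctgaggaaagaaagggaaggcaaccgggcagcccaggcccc
LDHA: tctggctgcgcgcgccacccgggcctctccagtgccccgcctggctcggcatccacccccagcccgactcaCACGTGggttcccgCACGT
In GRCh38.p14 these lie at chr19:8363905-8363994 (plus strand) for ANGPTL4, chr10:6144710-6144799 (plus strand) for PFKFB3, chr10:131982020-131982109 (minus strand) for BNIP3 and chr14:33951075-33951164 (minus strand) for EGLN3. Those of the other 3 genes are chr15:63382007-63382096 (minus strand) for CA12, chr11:10304929-10305018 (plus strand) for ADM and chr11:18394405-18394494 (plus strand) for LDHA. The BNIP3 stretch holds 5 separate matches, the LDHA stretch 2, and the EGLN3 window none. The run CACGTG, seen in BNIP3 and LDHA, holds ACGTG on both strands, was counted once and is also the E-box read by other factors. A match stood in 6 of 10 promoters of genes that rose (60.0%), 12 of 14 that fell (85.7%) and 6 of 14 that were not called (42.9%). Over 22199 promoters of protein-coding genes the share was 49.3%, and over all 35116 promoters it was 43.2%. These letters were thus present in promoters of genes with every outcome, and a match describes the sequence only.

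Of 9 measured genes of upper glycolysis, 5 rose, 1 fell and 3 were not called, against 24.5% of all genes higher and 23.5% lower. The share called, 66.7%, lay near the 67.5% of all genes above the median of all values. Phosphofructokinase commits sugar to glycolysis, and the genes of all 3 of its subunits rose. PFKL, the liver-type subunit, read 9.26, 9.28 and 9.26 in WZR6 cells and 8.79, 8.65 and 8.78 in parental cells, 1.44-fold higher in WZR6 (1.32 to 1.57, adjusted p = 0.000188), and its second probe set gave a difference of 0.54. PFKP, the platelet-type subunit, read 12.38, 12.42 and 12.44 in WZR6 cells and 12.12 in each of 3 parental arrays, 1.23-fold higher (1.15 to 1.31, adjusted p = 0.000861). PFKM, the muscle-type subunit, read 11.33, 11.33 and 11.31 in WZR6 cells and 11.04, 11.03 and 11.05 in parental cells, 1.22-fold higher (1.14 to 1.30, adjusted p = 0.000856). GPI, which converts glucose 6-phosphate to fructose 6-phosphate just before that step, read 11.92, 11.93 and 11.93 in WZR6 cells and 11.60, 11.49 and 11.51 in parental cells. GPI was 1.31-fold higher in WZR6 (1.22 to 1.42, adjusted p = 0.000452), and for none of these 4 genes did the groups overlap.

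Of 3 genes for the enzymes that set the level of fructose 2,6-bisphosphate, the strongest activator of phosphofructokinase, 2 fell and 1 was not called. PFKFB3, the form with the highest kinase activity, read 9.89, 9.81 and 9.92 in WZR6 cells and 10.50, 10.51 and 10.52 in parental cells. It was 1.55-fold lower in WZR6 (1.44 to 1.67, adjusted p = 4.63e-05), the second largest fall of the set. PFKFB4 read 6.11, 5.88 and 6.07 in WZR6 cells and 6.43, 6.38 and 6.15 in parental cells, a difference of -0.30 ± 0.09 (SE, adjusted p = 0.0351). That call ended without WZR6 replicate 2 or 3 or parental replicate 1 or 2, with adjusted p up to 0.106, and both of its means lay below the median of all values. PFKFB2 was not called on its brighter probe set, at -0.06, while the dimmer one was called at -0.55.

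Of the glucose transporters and hexokinases, 1 of 4 was called on its brightest probe set. SLC2A1, the glucose transporter GLUT1, read 9.51, 9.48 and 9.59 in WZR6 cells and 9.51, 9.46 and 9.62 in parental cells, with a 95% interval of the difference from -0.14 to 0.14 (adjusted p = 0.973). SLC2A3, the high-affinity transporter GLUT3, was called at 0.15 ± 0.05 (adjusted p = 0.0489), and of the 6 fits that left out 1 array that call remained only without WZR6 replicate 1, with adjusted p between 0.0309 and 0.132. HK2, the hexokinase most linked to tumours, read 11.29, 11.29 and 11.23 in WZR6 cells and 11.21, 11.31 and 11.33 in parental cells, with an interval of -0.13 to 0.10 (adjusted p = 0.845). A much dimmer probe set of HK2 was called at -0.68, so its probe sets disagree on whether there was a difference. HK1 differed by -0.01, with an interval of -0.11 to 0.09. ALDOC, a minor aldolase, was called at 0.26 ± 0.07 and the abundant ALDOA at -0.14 ± 0.04, and leaving out single arrays ended the call in 3 of 6 fits for ALDOC (without WZR6 replicate 2 or parental replicate 2 or 3, adjusted p up to 0.0645). For ALDOA it ended in 5 of 6, all but the one without parental replicate 3, with adjusted p up to 0.0909.

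Lower glycolysis was mixed, with 1 of 6 genes higher, 2 lower and 3 not called, and neither lactate dehydrogenase was called. LDHA, which makes lactate from pyruvate, read 14.86, 14.87 and 14.91 in WZR6 cells and 14.87, 14.87 and 14.93 in parental cells. Its interval was -0.11 to 0.09 (adjusted p = 0.873), and that of LDHB, the form that favours pyruvate, was -0.13 to 0.06. PKM, the last enzyme of glycolysis, read 10.72, 10.72 and 10.64 in WZR6 cells and 10.86, 10.78 and 10.74 in parental cells, with an interval of -0.22 to 0.02 (adjusted p = 0.168), and its dimmer probe set was called at -0.39. ENO2, the neuronal form of enolase, read 8.69, 8.76 and 8.85 in WZR6 cells and 9.08, 9.07 and 9.06 in parental cells, 1.24-fold lower in WZR6 (1.13 to 1.35, adjusted p = 0.00281). ENO1, the common form, was 1.20-fold higher (1.12 to 1.28, adjusted p = 0.00145) with all 3 probe sets called higher, and the mutase PGAM1 was 1.17-fold lower (1.09 to 1.25, adjusted p = 0.00428). GAPDH, at 0.07, and PGK1, at 0.08, were not called, although 1 of 4 PGK1 probe sets was called higher. TPI1, the isomerase that joins upper and lower glycolysis, was not called, and the dimmest of its probe sets was called lower at -0.37.

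The 4 pyruvate dehydrogenase kinases, which inhibit pyruvate dehydrogenase, were not called on their brightest probe sets, with differences between -0.05 and 0.13. PDK2 is unsettled, since its probe set of lower mean level was called at 0.60 and the brighter one gave 0.12. Averaging each gene's own probe sets called PDK2 at 0.36 and PDK3 at 0.17 (adjusted p = 0.00322 and 0.0097 in limma). PDK4 lay below the lower quartile of all values in both groups, at 4.80 in WZR6 cells and 4.85 in parental cells.

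**Figure D3:**
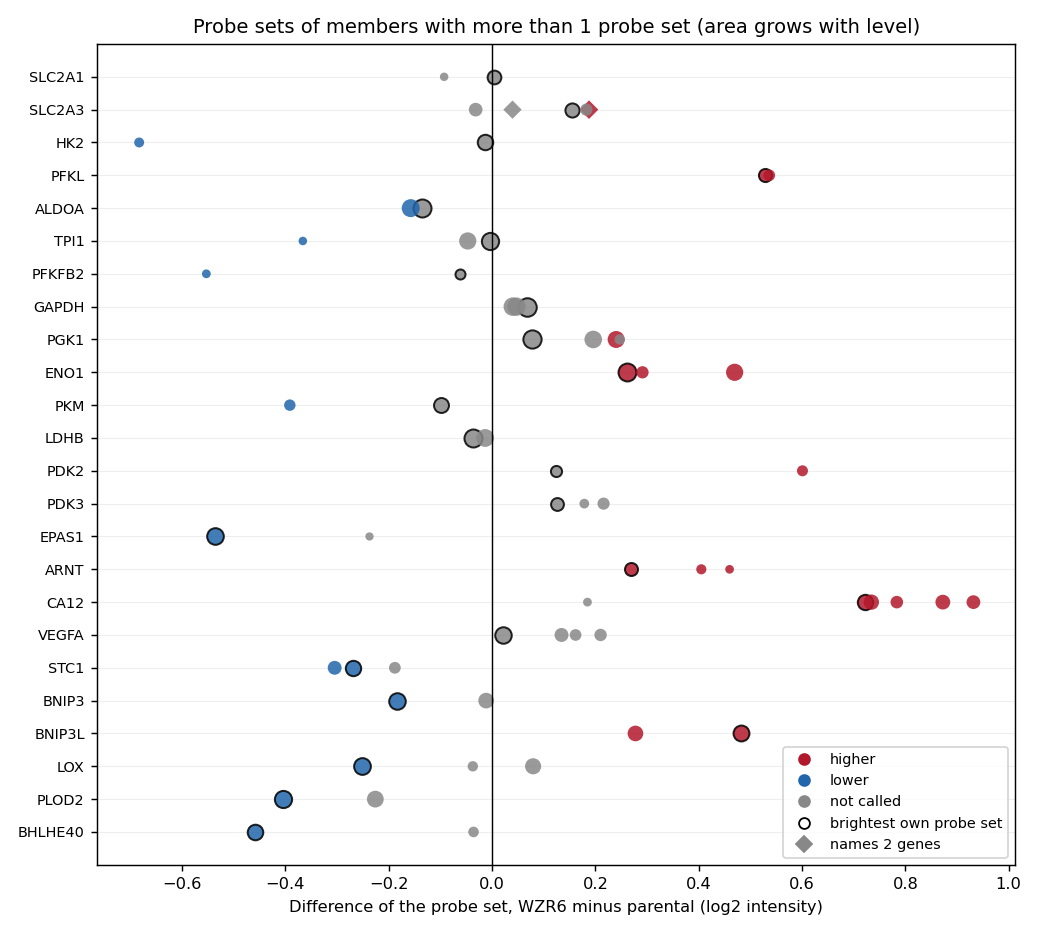
Differences of all probe sets (WZR6 minus parental, log2 intensity) for the 24 genes with more than 1 probe set; colours give the limma call over all probe sets, larger points a higher level, outlined points the brightest own probe set, and diamonds probe sets that name 2 genes. HK2, TPI1, PFKFB2, PKM, PDK2, PGK1 and ALDOA each have a dimmer own probe set that was called while the brightest was not. For SLC2A3 the only probe set called names 2 genes.

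When every probe set was fitted, 44 of the 87 were called (50.6%), with 25 rising and 19 falling. Among all probe sets 41.1% were called, 21.6% higher and 19.5% lower. When only probe sets with a mean above the median of all values were fitted, 46 of 69 member probe sets were called. Of all such bright probe sets 72.2% were called, so the members showed no excess at like brightness. The groups did not overlap on 60 of the 87, against 51.1% of all probe sets, a share not computed at like brightness. Among the 24 genes with more than 1 probe set, 15 had probe sets that differed in call, and in 0 of them were probe sets called in both directions. ALDOA, SLC2A3, VHL and P4HA2, called in the fit over genes, were not called on the same probe set in the fit over all probe sets.

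Ratios between related genes were also followed. The log2 ratio between 2 relatives was taken on each array and compared between groups with a two-sided exact permutation test for 10 pairs, in which the smallest p that 3 arrays against 3 allow is 0.1 (0.167 after Benjamini-Hochberg adjustment over the pairs), so no pair could be called. The ratio of ENO2 to ENO1 changed by -0.57, of BNIP3L to BNIP3 by 0.67, of ALDOC to ALDOA by 0.39 and of PFKP to PFKL by -0.24, each at that smallest p, as were EGLN3 to EGLN1 and SLC2A3 to SLC2A1 (0.15). The ratio of HK2 to HK1 changed by -0.01 (-0.34 when each gene's own probe sets were averaged) and that of P4HA2 to P4HA1 by less than 0.01 (exact p = 1 for both), LDHB to LDHA by -0.03 (exact p = 0.4) and EPAS1 to HIF1A by -0.09 (exact p = 0.3).

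Genes that lie together on a chromosome can shift together, so each difference was set beside the median of the 20 nearest measured genes, 10 on each side, in RefSeq order (18 for PFKP and BHLHE40). The neighbours of 19 of the 29 called members shifted the same way as the member and those of 10 the other way. After that median was subtracted 26 of the 29 kept at least 50% of their difference, which the 10 do by construction. Some remainders were small, such as 0.08 for SLC2A3 and -0.08 for ALDOA. For ENO1 on chromosome 1 the neighbours rose more than the gene itself, with a median of 0.43, and the remainder was -0.17. For BNIP3 on chromosome 10 the neighbours fell more, with a median of -0.31, and the remainder was 0.13. PLOD2 on chromosome 3 had neighbours at -0.34 and a remainder of -0.07. For these 3 genes the shift of the chromosomal region and the gene's own difference cannot be told apart. SLC2A1 had raised neighbours, with a median of 0.33, and did not follow them. PFKL, BHLHE40 and NDRG1 had neighbour medians of 0.05, 0.01 and 0.03, ANGPTL4 and PFKFB3 both had 0.07, and EGLN3, CA12 and ADM kept differences of 0.60, 0.59 and 0.44.

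**Figure D4:**
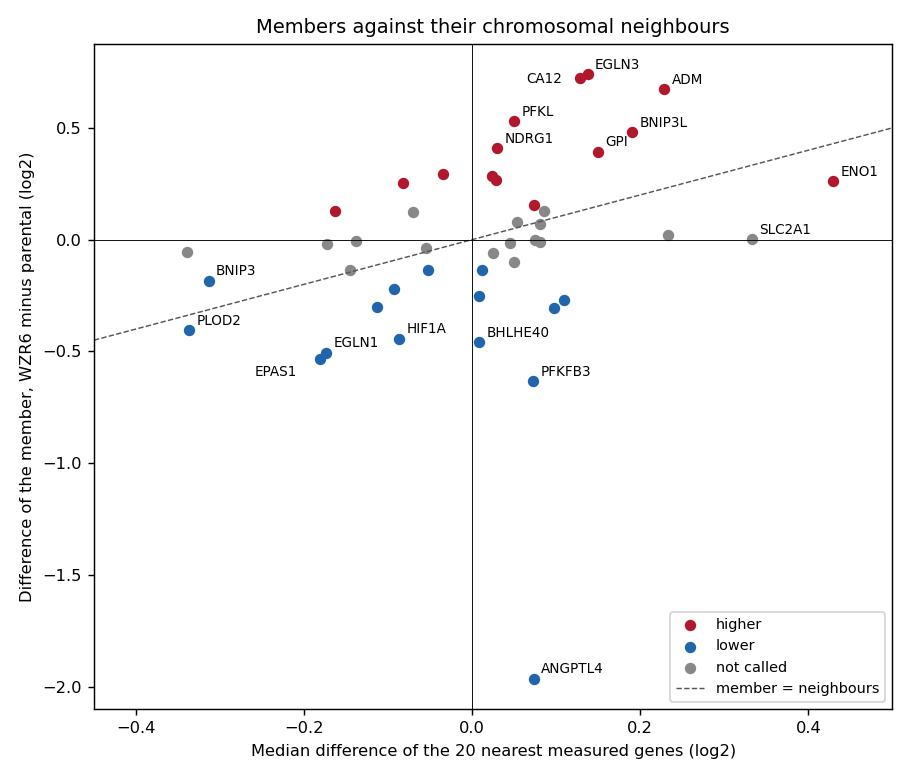
Difference of each measured member (WZR6 minus parental, log2) against the median difference of its 20 nearest measured genes on the chromosome, coloured by call; on the dashed line a member equals its neighbours. ENO1, at a neighbour median of 0.43, and BNIP3, at -0.31, lie nearer to 0 than their neighbours, while ANGPTL4 lies far below the line.

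The wider pathway was followed with lists of genes outside the set. Mitochondrial use of pyruvate showed 4 of 9 genes higher, 1 lower and 4 not called, with a median of 0.08. MPC1, a subunit of the mitochondrial pyruvate carrier, was 1.67-fold higher in WZR6 (adjusted p = 0.000135), and the pyruvate dehydrogenase components DLAT and PDHX were 1.53-fold and 1.52-fold higher (adjusted p = 0.000121 and 5.55e-05). The pentose phosphate pathway had 4 of 6 genes higher and 2 lower, led by RPE at -0.42, PGD at 0.30 with neighbours at 0.40, and TALDO1 at 0.29. Of 14 citric acid cycle genes 6 rose, 4 fell and 4 were not called. SUCLG1, a subunit of succinyl-CoA ligase, gave 0.41, IDH3A, a subunit of isocitrate dehydrogenase, gave -0.38 (-0.19 when its probe sets were averaged), and DLST, of the oxoglutarate dehydrogenase complex, gave -0.34 amid neighbours at -0.43.

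Of 15 genes of gluconeogenesis and glycogen, 4 rose, 4 fell and 7 were not called. FBP1, the gluconeogenic enzyme that opposes phosphofructokinase, was 2.54-fold lower in WZR6 (2.08 to 3.09, adjusted p = 0.000121), a difference of -1.34 that was -0.69 with values under 7.38 (the median) raised to it. PCK2, the mitochondrial enzyme that makes phosphoenolpyruvate, was 2.08-fold higher (1.89 to 2.28, adjusted p = 1.45e-05), and the glycogen primer GYG1 fell by 0.39 on the log2 scale amid neighbours at -0.30. Other isoforms and side branches of glycolysis were called for 5 of 14 genes, 3 higher and 2 lower. SLC16A7, the monocarboxylate transporter MCT2, read 8.50, 8.43 and 8.10 in WZR6 cells and 6.45, 6.50 and 6.70 in parental cells, 3.46-fold higher in WZR6 (2.85 to 4.21, adjusted p = 3.32e-05). Its parental values lay below the median of all values, and with the same floor the difference was 0.96, against 1.79 without one. GPD2, the mitochondrial glycerol 3-phosphate dehydrogenase, was 1.90-fold lower, a difference of -0.93 (adjusted p = 0.000417) that was -0.50 when its own probe sets were averaged, and the ADP-dependent glucokinase ADPGK 1.26-fold lower (adjusted p = 0.00604).

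Other regulators of HIF were called for 8 of 12 genes, 4 higher and 4 lower. Among the higher ones CUL2 is uncertain, since another of its own probe sets was called lower. The HIF coactivator CREBBP differed by -0.58 (-0.33 when its probe sets were averaged), the asparagine hydroxylase HIF1AN, a further oxygen sensor, by -0.35, and CITED2, which competes with HIF for that coactivator, by 0.49. Of 24 further hypoxia-induced genes 10 rose, 6 fell and 8 were not called, with a median of 0.13. Among those that fell FAM162A is uncertain, since another of its own probe sets was called higher. PPP1R3C, which targets a phosphatase to glycogen, was 2.32-fold higher in WZR6 (2.12 to 2.54, adjusted p = 6.42e-06) and JMJD6, a lysyl hydroxylase, differed by 0.59 (adjusted p = 0.000154). IGFBP3, a binding protein of insulin-like growth factors, read 9.56, 10.06 and 10.12 in WZR6 cells and 12.37, 12.35 and 12.30 in parental cells, 5.37-fold lower in WZR6 (4.23 to 6.80, adjusted p = 2.1e-05). Hypoxia-induced genes outside the set thus also moved in both directions. The shares called in these 7 lists ran from 35.7% to 100%, against 48.0% over all genes and 67.5% of genes above the median of all values. The lists were not compared with genes of like brightness.

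**Figure D5:**
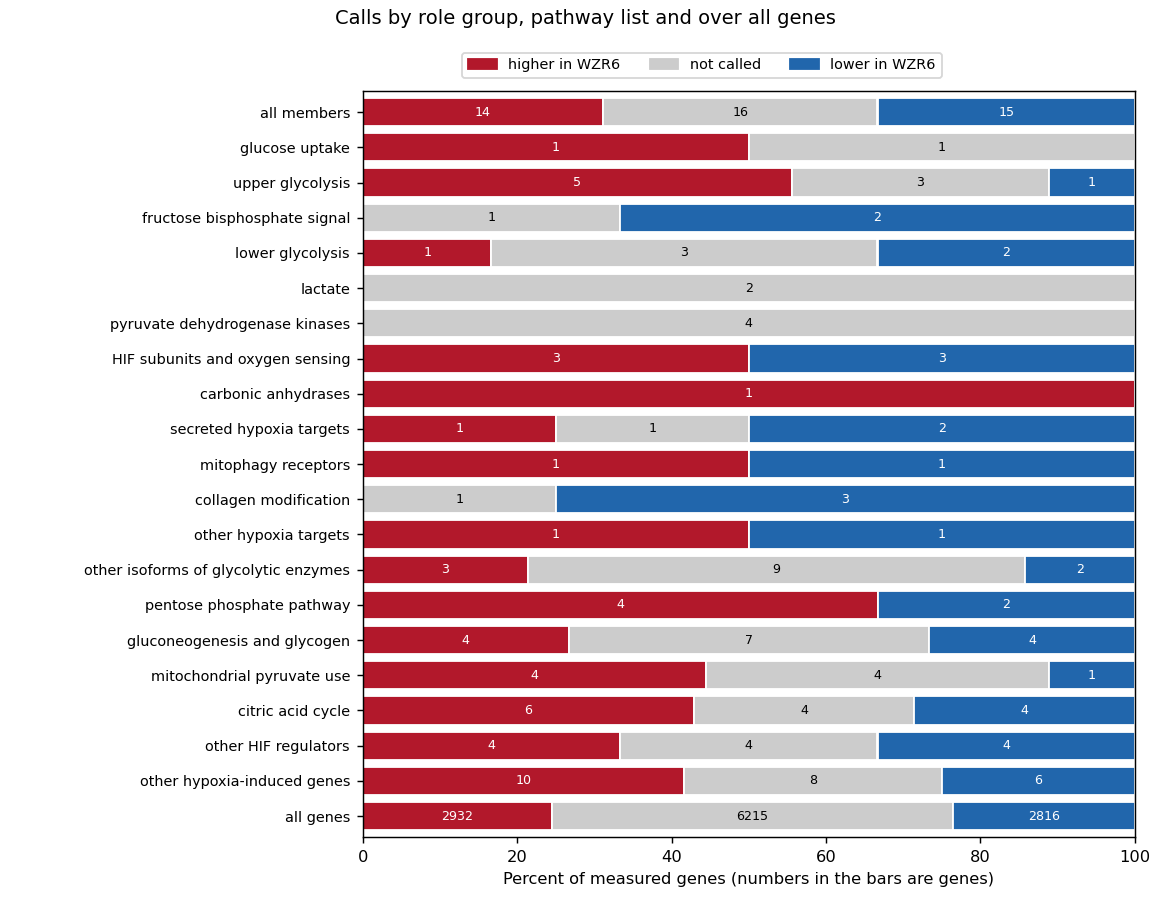
Percent of measured genes called higher in WZR6 (red), not called (grey) and called lower (blue) in limma, for all 45 members, for each role group, for 7 lists of related genes and for all 11963 genes; numbers in the bars are genes. Upper glycolysis has 5 of 9 genes higher, and lactate and pyruvate dehydrogenase kinase genes have none called.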

How the data were processed

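Expression was measured on 6 oligonucleotide arrays, 3 of WZR6 and 3 of parental cells, grouped by sample title. The deposited intensity table, linear with 1 value per probe set and array, came from RMA, per the submitters' processing notes, so background subtraction, quantile normalization and summarization were the authors'. The version of RMA is not stated in the labels, and detection calls were not used here. Log2 was taken without a pseudocount. Of 22277 probe sets, 62 controls were left out. The platform annotation named 1 gene for 19064 probe sets, several for 1043 and none for 2108, and Entrez identifiers matched 19052 to the RefSeq table of GRCh38.p14. For each gene the brightest probe set naming it alone, by mean over the 6 arrays, was used. WZR6 and parental cells were compared in R 4.3.3 by limma 3.58.1 (eBayes after lmFit; two-sided tests; Benjamini-Hochberg over all genes, and separately over all probe sets), with no block for replicate number. The model was tested on simulated data. Arrays of the same number had correlations of their deviations from group means of -0.01, 0.12 and 0.23, so the numbers were not taken as pairs. Values on every array are given for the 20 called members with the largest differences and no overlap and for SLC2A1, HK2, PKM, LDHA, HIF1A and VEGFA (CA9 was not analysed here), and up to 3 called genes are named per outside list. Others were chosen after their values were seen. Members, lists and tests were chosen with earlier results of these data known. Plots used Python 3.11.15 and matplotlib 3.10.9. Precision is limited by the number of arrays.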

Additional observations from a re-analysis of the deposited data

How the results depend on the processing

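Of the 29 called members 21 were called in every alternative that tested them. The other 8 were SLC2A3, ALDOA, ALDOC, PFKFB4, VHL, BNIP3, P4HA2 and LOX; BNIP3 and LOX lost their call only when a gene's own probe sets were averaged, at -0.10 and -0.07. Leaving out single arrays gave 23 to 26 called members, 11 to 13 higher and 12 to 14 lower, and 40 to 44 called probe sets, 24 to 27 higher and 16 to 19 lower. Without _x_at and _s_at probe sets, whose probes may match more than 1 transcript, 23 members on 27 probe sets were left, and 14 were called, 7 higher and 7 lower. Of these probe sets 15 were called, 7 higher and 8 lower, and fewer genes were then tested. ANGPTL4, EGLN3, EGLN1, PFKFB3, PFKL, GPI, NDRG1 and BHLHE40 were among the members left out, so their calls were not tested in this alternative. Subtracting the median of neighbouring genes reversed ENO1 (-0.17) and BNIP3 (0.13). With the replicate block 25 members were called, 12 higher and 13 lower, and 44 probe sets; SLC2A3, ALDOA, PFKFB4, VHL and P4HA2 lost their call and P4HA1 gained one (adjusted p = 0.0484). Cyclic loess gave 12 higher and 16 lower members, median centring 14 and 12, and the median of all genes ran from -0.01 to 0.06 under these scalings. Averaging probe sets called HK2, PKM, TPI1, PFKFB2, PGK1, PDK2 and PDK3 as well, 33 members in all. Signal near background limits VHL and PDK4.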
